A study of Laodelphax striatellus with 6 samples.

Results

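The chemosensory transcripts of the small brown planthopper, Laodelphax striatellus, a sap-feeding pest of rice, are the soluble carriers and membrane receptors with which the insect smells and tastes. They were taken as every assembled gene whose protein description names an odorant, olfactory, chemosensory, gustatory, ionotropic receptor, sensory neuron membrane, pheromone or takeout protein, leaving out descriptions that name glutamate. The rule found 34 of 59004 assembled genes, all by name and none by expression. Of these, 13 have their best database hit in Laodelphax striatellus itself, 19 in the planthopper Nilaparvata lugens, 1 in the planthopper Sogatella furcifera and 1 in the leafhopper Homalodisca vitripennis. They are 8 odorant-binding proteins, 6 chemosensory proteins, 4 takeout proteins, 2 sensory neuron membrane proteins, 3 coreceptor sequences, 3 odorant receptors, 7 gustatory receptors and 1 ionotropic receptor.

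The groups were 3 libraries from wild-type whole bodies treated with β-asarone, a plant phenylpropanoid, and 3 libraries from wild-type untreated control whole bodies. The study asked how detoxification metabolism responds to the compound, and the chemosensory genes were not its stated subject. The labels give no dose, exposure time, sex, stage, strain or number of insects. Nothing in them tells whether replicate libraries were made from different insects, so the p-values reflect library-to-library spread, part or all of which may be technical. Values are TPM, the share of a library's RNA corrected for transcript length, so levels of different genes can be set side by side. The sequencing depth behind them is unknown.

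In insects, odorant-binding proteins and chemosensory proteins are small secreted proteins that carry hydrophobic molecules through the fluid bathing sensory neurons. Odorant receptors sit in the neuron's membrane with a common coreceptor, Orco, which they need to reach the cilium and to form an ion channel. Gustatory receptors and ionotropic receptors are separate receptor families for taste, carbon dioxide, acids, amines, temperature and humidity. Members of the carrier families are also made outside the antenna, and a whole-body library mixes all these sources. In whole-body RNA, fewer cells of a type and less RNA per cell cannot be told apart.

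No tested chemosensory transcript differed between β-asarone-treated and control insects beyond the spread between libraries. Of the 34 members, 25 averaged 1 TPM or more across the libraries and were tested with all other such genes. By limma's moderated test on log2(TPM + 1), 0 of these 25 passed a Benjamini-Hochberg adjusted p of 0.05, where 0.00403% of all 24816 tested genes passed, and the smallest adjusted p of a member was 0.98. At an unadjusted p under 0.05 the count of members was also 0, against 3.47% of all tested genes. The groups did not overlap for 2 of the 25 members, which is 8% of them, against 8.66% of all tested genes. Of these, 1 was higher in asarone (4.53% of all tested genes) and 1 lower (4.14% of all tested genes).

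The log2 change (asarone minus control, always of TPM + 1) was above 0 for 15 of the 25 tested members and below 0 for 10, while 62.8% of all tested genes lay above 0. Their median log2 change was 0.028, beside 0.084 over all tested genes. This split was 8 above and 17 below after median-of-ratios or trimmed-mean scaling, and 10 above and 15 below after quantile normalization. The median log2 change over all tested genes was then 0.0049, 0.015 and 0.0083. The split of the members also turned on leaving out asarone replicate 1 (9 above and 14 below), control replicate 1 (11 and 13) or control replicate 2 (10 and 15). In these runs the median over all tested genes was 0.033, 0.18 and -0.033. No direction is read from the split.

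**Figure D1:**
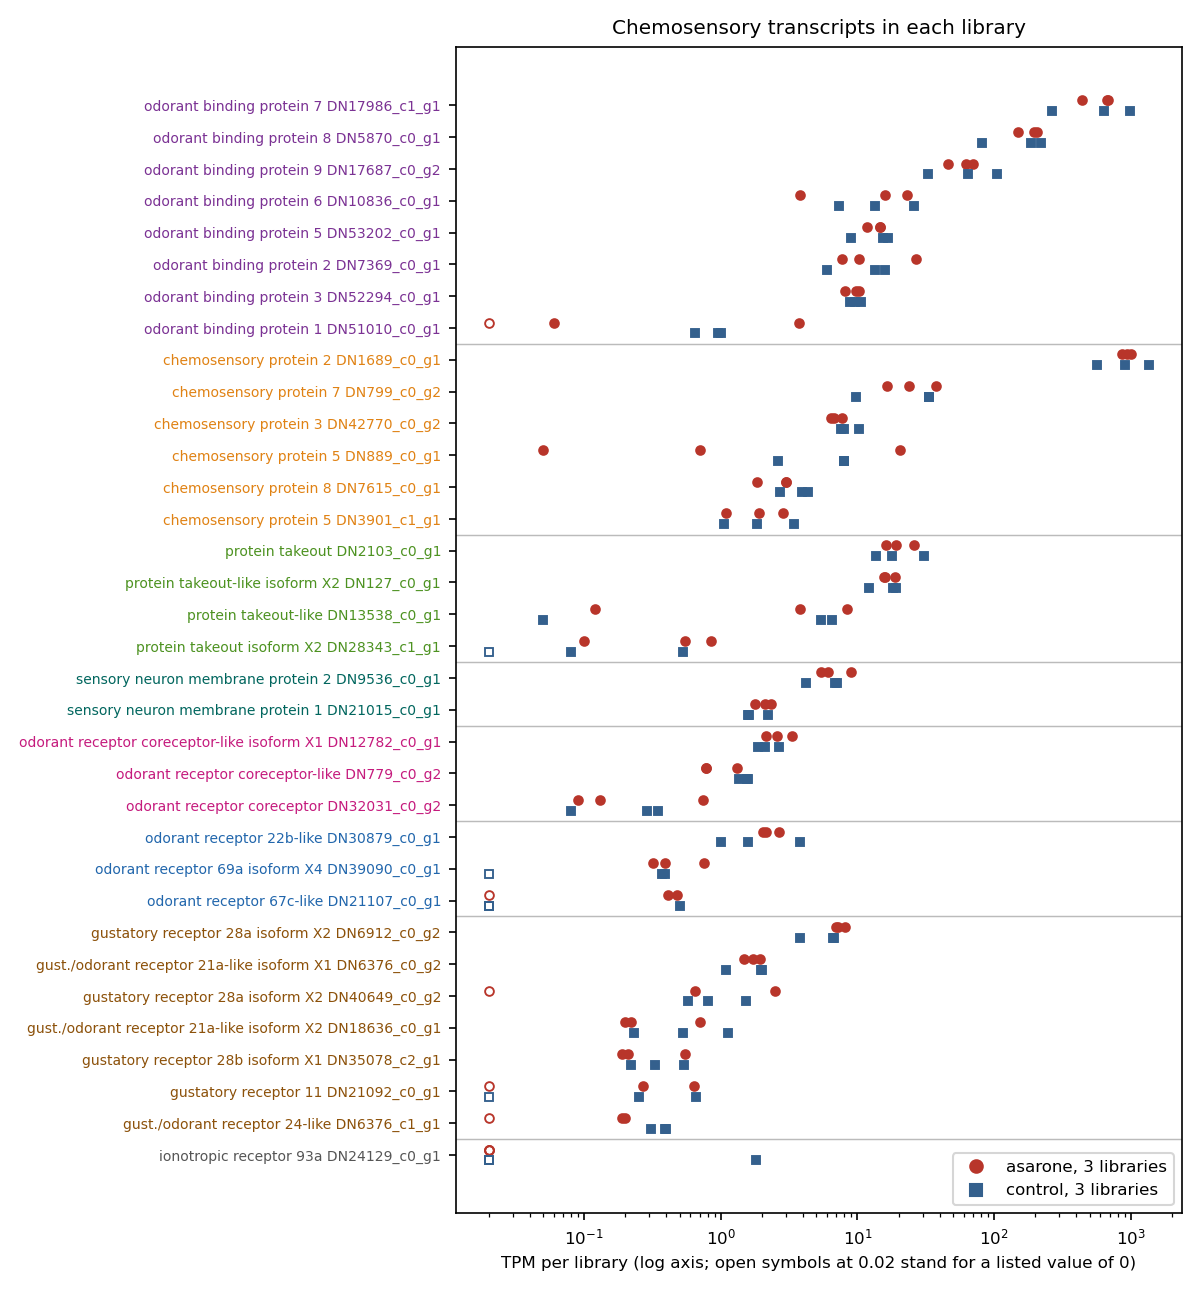
TPM of all 34 chemosensory transcripts in each library on a log axis, with circles for the 3 asarone and squares for the 3 control libraries, grouped and coloured by class; open symbols mark a listed value of 0. Levels run from 1359 TPM for chemosensory protein 2 down to receptors below 1 TPM, and the circles and squares of nearly every row interleave.

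The carriers made up nearly all of the chemosensory RNA. All 34 members together summed to 1741, 2081 and 2005 TPM in asarone replicates 1, 2 and 3 and to 1991, 1936 and 1985 TPM in control replicates 1, 2 and 3. On average this was 0.196% of a library. The 6 chemosensory proteins summed to 978 ± 57.7 TPM in asarone and 992 ± 406 TPM in control insects (SD, n = 3 each), and the 8 odorant-binding proteins to 896 ± 148 TPM in asarone and 912 ± 392 TPM in control insects (SD, n = 3 each). The group means of these sums lay far closer together than the single control libraries did. The 4 takeout proteins summed to 42.0 ± 10.6 TPM in asarone and 41.4 ± 9.20 TPM in control insects. The sums of the receptor classes were between 0 and 13.8 TPM in any library.

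Of the 8 odorant-binding proteins, 3 held most of the summed TPM of the class. Odorant-binding protein 7 (TRINITY_DN17986_c1_g1), a carrier of small hydrophobic ligands and 68.0% of the summed TPM of its class, was at 439, 686 and 670.15 TPM in asarone replicates 1, 2 and 3 and at 267, 984 and 639 TPM in control replicates 1, 2 and 3. Both the lowest and the highest library were controls, and all asarone values lay between them. Its log2 change was 0.089 (SE 0.48, 95% limma interval -1.08 to 1.26, limma adjusted p = 0.987). By mean level it ranked 359 of all 59004 assembled genes.

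Odorant-binding protein 8 (TRINITY_DN5870_c0_g1) followed the same order of libraries at a lower level. It was at 149, 208 and 196 TPM in asarone and at 81.1, 221 and 186 TPM in control replicates 1, 2 and 3. Control replicate 1 was again lowest and control replicate 2 highest, with a log2 change of 0.29 (SE 0.39, 95% limma interval -0.65 to 1.22). Its direction turned on leaving out control replicate 1, which gave a log2 change of -0.15. The ratio of odorant-binding protein 7 to 8 stayed between 2.96 and 4.46 in the 6 libraries.

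Odorant-binding protein 9 (TRINITY_DN17687_c0_g2) ran the other way. It was at 69.7, 46.4 and 62.4 TPM in asarone and at 105, 33.0 and 64.8 TPM in control replicates 1, 2 and 3. Here control replicate 1 was the highest library and control replicate 2 the lowest, with a log2 change of -0.055 (SE 0.42, 95% limma interval -1.07 to 0.96). The ratio of odorant-binding protein 7 to 9 ran from 2.53 in control replicate 1 to 29.8 in control replicate 2, an 11.8-fold span between libraries of 1 group.

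**Figure D2:**
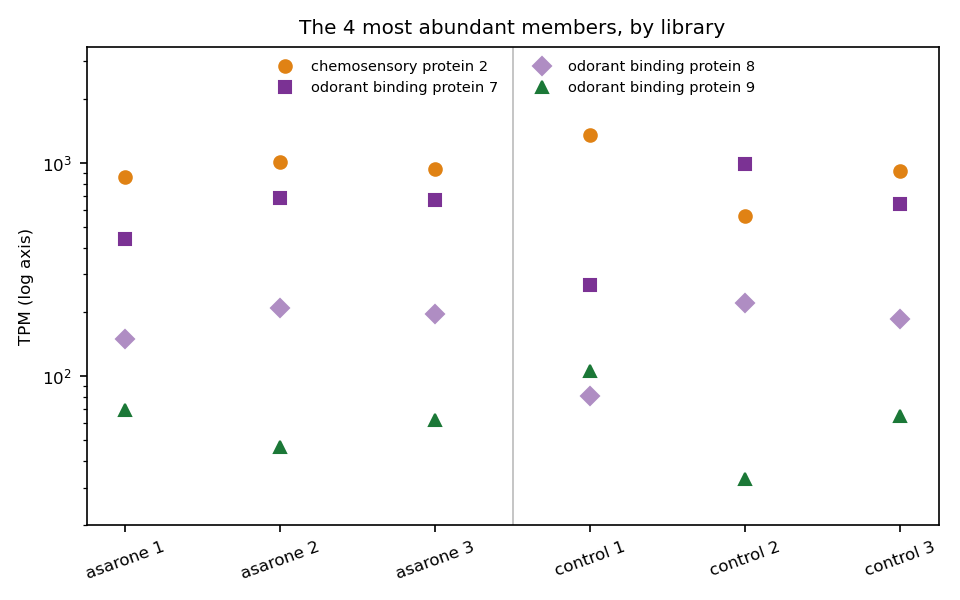
TPM on a log axis of the 4 most abundant chemosensory transcripts in the 3 asarone and then the 3 control libraries, 1 symbol per transcript. In control replicate 2, odorant-binding protein 7 (984 TPM) stands above chemosensory protein 2 (566 TPM), while in the other 5 libraries chemosensory protein 2 is the higher of the pair; the asarone values lie inside the control range for all 4.

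Among the less abundant odorant-binding proteins, some were steady and some changed several-fold from library to library within a group. Odorant-binding protein 3 (TRINITY_DN52294_c0_g1) was the steadiest member, at 9.78, 10.2 and 8.12 TPM in asarone and at 9.53, 8.76 and 10.6 TPM in control replicates 1, 2 and 3. Its log2 change was -0.039 with a 95% limma interval of -0.41 to 0.33, the narrowest of the 25. Odorant-binding protein 5 (TRINITY_DN53202_c0_g1) was at 11.7, 14.5 and 14.5 TPM in asarone and at 8.98, 16.7 and 15.3 TPM in control insects. It shared with proteins 7 and 8 its lowest value in control replicate 1 and its highest in control replicate 2.

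Odorant-binding protein 6 (TRINITY_DN10836_c0_g1) was at 15.9, 3.82 and 22.9 TPM in asarone and at 26.1, 7.38 and 13.5 TPM in control replicates 1, 2 and 3. Its replicate 2 library was the lowest of each group, and the log2 change of -0.25 had a wide 95% limma interval, -1.93 to 1.42. Odorant-binding protein 2 (TRINITY_DN7369_c0_g1) was at 27.0, 7.66 and 10.3 TPM in asarone and at 6.03, 15.8 and 13.4 TPM in control insects. Asarone replicate 1 alone was above all controls, and without it the log2 change of 0.23 became -0.27. Odorant-binding protein 1 (TRINITY_DN51010_c0_g1) was listed at 3.76, 0 and 0.06 TPM in asarone and at 0.96, 0.65 and 1.01 TPM in control insects, so the asarone libraries lay on both sides of the controls.

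Chemosensory protein 2 (TRINITY_DN1689_c0_g1) was the most abundant of all chemosensory transcripts and held 95.4% of the summed TPM of the chemosensory proteins, a carrier family expressed in antennae, legs and other tissues of insects. It was at 859, 1007 and 933 TPM in asarone and at 1359, 566 and 913 TPM in control replicates 1, 2 and 3. As with odorant-binding protein 9, control replicate 1 was the highest and control replicate 2 the lowest library. The log2 change was 0.067 (SE 0.31, 95% limma interval -0.69 to 0.83, limma adjusted p = 0.986). It ranked 235 of all assembled genes by mean level.

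The abundant carriers moved in opposite directions between libraries. Across the 6 libraries Pearson's r of log2(TPM + 1) was 0.96 between odorant-binding proteins 7 and 8, 0.86 between chemosensory protein 2 and odorant-binding protein 9, -0.82 between chemosensory protein 2 and odorant-binding protein 7 and -0.93 between odorant-binding proteins 7 and 9. These are descriptions of 6 points that share library composition, and TPM is a share of a fixed total. The summed TPM of the odorant-binding proteins was 725, 977 and 985 in asarone and 505, 1287 and 944 in control replicates 1, 2 and 3. The summed TPM of the chemosensory proteins was 931, 1042 and 960.4 in asarone and 1408, 598 and 971 in control insects. The 2 sums thus crossed between control replicates 1 and 2, while the sum over all 34 members stayed between 1936 and 1991 TPM in the controls. This near-constant total holds for TPM as deposited. The median-of-ratios size factors of control replicates 1, 2 and 3 were 1.11, 0.777 and 1.03, so dividing by them sets the control totals apart.

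**Figure D3:**
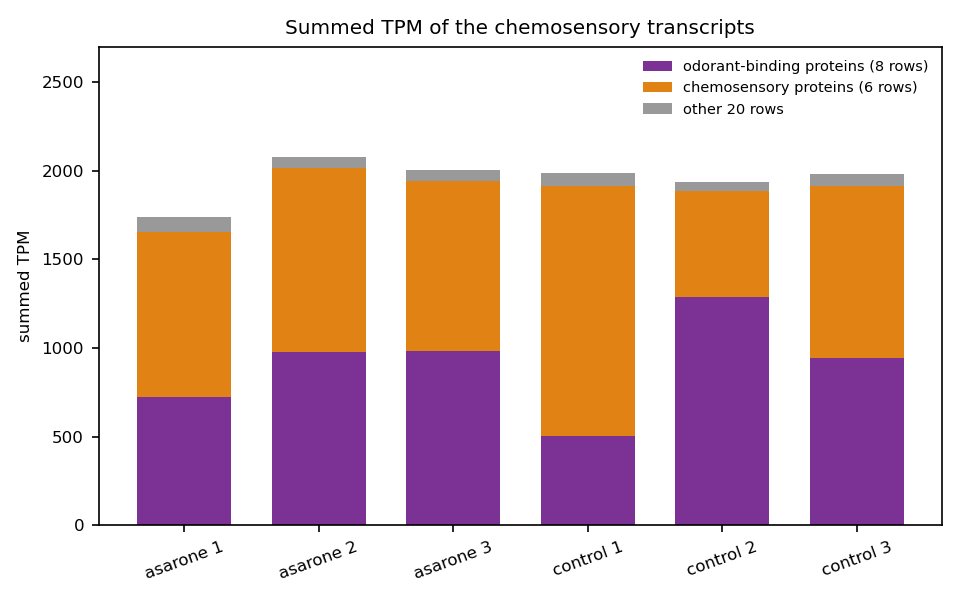
Stacked bars of the summed TPM of the odorant-binding proteins, the chemosensory proteins and the other 20 chemosensory transcripts in each of the 3 asarone and 3 control libraries. Bar heights lie between 1741 and 2081 TPM, while the odorant-binding part runs from 505 TPM in control replicate 1 to 1287 TPM in control replicate 2.

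Markers of other tissues also varied between the libraries, the gut list least. The 9 rows of the neuron list (synaptotagmins, sodium channels and ELAV-type proteins, all above 0 in every library) summed to 18.6, 12.9 and 13.7 TPM in asarone and to 25.0, 7.79 and 16.3 TPM in control replicates 1, 2 and 3, the same extremes as chemosensory protein 2 and odorant-binding protein 9. This list also takes 2 rows of the Nach channel and 1 of a CUGBP Elav-like protein, which are not neuron-specific. The 15 muscle rows, 14 of them above 0 in every library, summed to between 1902 and 2896 TPM in asarone and between 1995 and 2825 TPM in control insects. The 42 cuticle rows, 40 of them above 0 in every library, summed to between 6853 and 18469 TPM in asarone and between 11568 and 17913 TPM in control insects. The 5 gut rows, 3 of them above 0 in every library, summed to between 109 and 127 TPM in asarone and between 102 and 116 TPM in control insects. The vitellogenin pattern, set for fat body and yolk, matched 0 rows, and in all other lists 0 rows were at 0 in all libraries. Control replicate 2 also stood apart as a library, with a median-of-ratios size factor of 0.777 against 0.994 to 1.13 in the other 5. Asarone replicate 2 stood apart in other ways. Its cuticle rows summed to 6853 TPM, against 11568 to 18469 TPM in the other 5, and on the second principal component of log2(TPM + 1) over the tested genes it lay at 74.9, against -43.5 to 0.12 in the other 5. The part of tissue proportions and library composition in the carrier values was not tested. After dividing by the size factors, odorant-binding protein 7 was at 390, 686 and 674 in asarone replicates 1, 2 and 3. It was then at 240, 1266 and 618 in control replicates 1, 2 and 3, a wider control spread than in TPM. The control spread of odorant-binding protein 8 also widened, to 72.9, 284 and 180. It narrowed for chemosensory protein 2, to 1222, 728 and 884, and for odorant-binding protein 9, to 94.8, 42.5 and 62.7.

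The other chemosensory proteins were between 37.8 and 0.05 TPM. Chemosensory protein 7 (TRINITY_DN799_c0_g2) was at 37.8, 23.7 and 16.4 TPM in asarone and at 33.4, 9.82 and 33.2 TPM in control replicates 1, 2 and 3. Control replicate 2 was the lowest of all 6, and without it the log2 change of 0.13 became -0.43. Chemosensory protein 3 (TRINITY_DN42770_c0_g2) was at 7.66, 6.36 and 6.76 TPM in asarone and at 7.98, 7.53 and 10.3 TPM in control insects. Chemosensory protein 8 (TRINITY_DN7615_c0_g1) was at 3.01, 3.01 and 1.85 TPM in asarone and at 3.94, 2.71 and 4.36 TPM in control insects. The groups of both overlapped by 1 control library, replicate 2.

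These 2 chemosensory proteins were the members nearest to a difference once libraries were rescaled. After median-of-ratios scaling, chemosensory protein 3 was at 6.81, 6.36 and 6.80 in asarone and at 7.18, 9.69 and 9.93 in control replicates 1, 2 and 3 (log2 change -0.36, SE 0.15, limma adjusted p = 0.996). On the same scale, chemosensory protein 8 was at 2.67, 3.01 and 1.86 in asarone and at 3.54, 3.49 and 4.22 in control insects (log2 change -0.45, SE 0.17, limma adjusted p = 0.996). Under that scaling, 2 of 25 members and 4.01% of all tested genes had an unadjusted p under 0.05, and the groups did not overlap for 8.93% of all tested genes. In TPM as deposited their log2 changes were -0.27 (SE 0.17) for chemosensory protein 3 and -0.37 (SE 0.23) for chemosensory protein 8.

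Chemosensory protein 5 (TRINITY_DN889_c0_g1) had the largest spread of any tested member. It was at 20.5, 0.71 and 0.05 TPM in asarone and at 2.62, 8.03 and 7.99 TPM in control replicates 1, 2 and 3. Asarone replicate 1 was above every control and asarone replicates 2 and 3 were below every control. The SD within groups was 1.74 on the log2 scale, at the percentile 99.4 of the 7374 tested genes with a mean within 2-fold of its own. The log2 change was -0.98 (SE 1.14, 95% limma interval -3.73 to 1.78), and without asarone replicate 1 it was -2.31 (SE 0.50, limma adjusted p = 1.00). A second row described as chemosensory protein 5, with its best hit in Sogatella furcifera (TRINITY_DN3901_c1_g1), did not share this pattern, at 2.85, 1.10 and 1.91 TPM in asarone and at 1.06, 3.41 and 1.85 TPM in control insects.

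**Figure D4:**
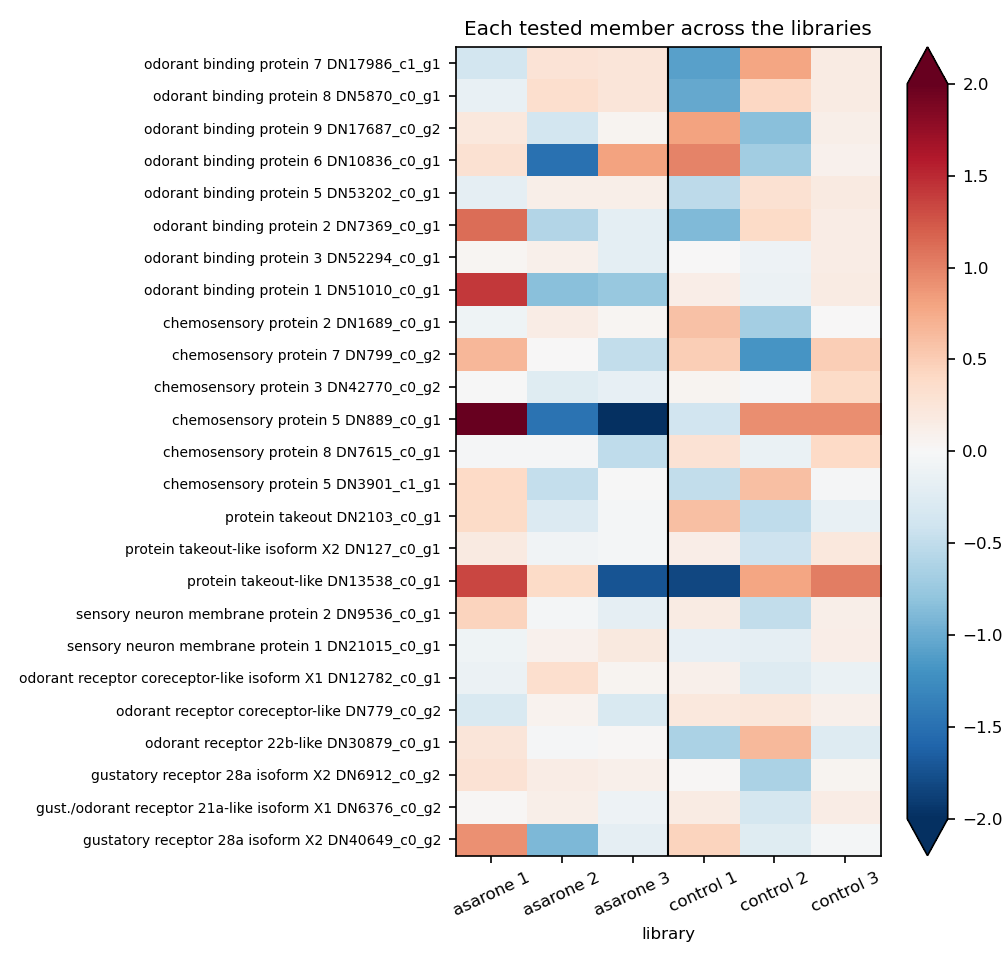
Heat map of log2(TPM + 1) minus its mean over the 6 libraries for the 25 tested members (rows), with the 3 asarone libraries left and the 3 control libraries right of the black line; the scale ends at -2 and 2. Odorant-binding proteins 7 and 8 are low in control replicate 1 and high in control replicate 2, odorant-binding protein 9 and chemosensory protein 2 are the reverse, and chemosensory protein 5 and a takeout-like transcript (TRINITY_DN13538_c0_g1) change most from library to library.

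The takeout proteins belong to a family of secreted lipid carriers related to juvenile hormone-binding proteins, and in Drosophila takeout is known for its part in feeding and circadian behaviour. The transcript described as protein takeout (TRINITY_DN2103_c0_g1) was at 26.1, 16.2 and 19.3 TPM in asarone and at 30.6, 13.7 and 17.9 TPM in control replicates 1, 2 and 3. Replicate 1 was the highest and replicate 2 the lowest library of each group, and the log2 change was 0.037 (SE 0.32). A takeout-like isoform X2 (TRINITY_DN127_c0_g1) was at 18.9, 15.6 and 16.0 TPM in asarone and at 18.1, 12.1 and 19.1 TPM in control insects, with a log2 change of 0.050 (SE 0.20). After median-of-ratios scaling both log2 changes were below 0, at -0.065 for protein takeout and -0.051 for the isoform X2.

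Another takeout-like transcript (TRINITY_DN13538_c0_g1) was present or nearly absent by library, not by group. It was at 8.38, 3.83 and 0.12 TPM in asarone and at 0.05, 5.40 and 6.51 TPM in control replicates 1, 2 and 3. One library of each group was at or below 0.12 TPM while the other libraries of both groups were at 3.83 TPM or more. The log2 change was 0.0026 with a 95% limma interval of -2.50 to 2.50. The fourth takeout row (TRINITY_DN28343_c1_g1) stayed under 1 TPM in every library and was not tested.

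Sensory neuron membrane proteins are CD36-type membrane proteins. In Drosophila, SNMP1 is needed in olfactory neurons for detecting a fatty-acid-derived pheromone. Sensory neuron membrane protein 2 (TRINITY_DN9536_c0_g1) was at 8.95, 6.09 and 5.41 TPM in asarone and at 7.13, 4.17 and 6.86 TPM in control replicates 1, 2 and 3 (log2 change 0.15, SE 0.26). Sensory neuron membrane protein 1 (TRINITY_DN21015_c0_g1) was at 1.77, 2.12 and 2.35 TPM in asarone and at 1.62, 1.57 and 2.21 TPM in control insects (log2 change 0.14, SE 0.18). The groups overlapped for both.

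The coreceptor Orco was spread over 3 assembled rows, all with a best hit in Nilaparvata lugens, which may be pieces or forms of 1 gene. The most abundant row (TRINITY_DN12782_c0_g1) was at 2.14, 3.34 and 2.57 TPM in asarone and at 2.68, 1.87 and 2.12 TPM in control replicates 1, 2 and 3 (log2 change 0.19, SE 0.20). The next row (TRINITY_DN779_c0_g2) was at 0.78, 1.32 and 0.78 TPM in asarone and at 1.56, 1.57 and 1.36 TPM in control insects. All 3 asarone values of this row lay below all control values, and it had the smallest unadjusted p of the 25 members (log2 change -0.36, SE 0.20, 95% limma interval -0.85 to 0.13, limma adjusted p = 0.98). After median-of-ratios scaling its groups just overlapped, with the highest asarone library at 1.32 and the lowest control at 1.316. They also overlapped after quantile normalization, and after trimmed-mean scaling they did not. The third row (TRINITY_DN32031_c0_g2) was at 0.74, 0.09 and 0.13 TPM in asarone and at 0.35, 0.08 and 0.29 TPM in control insects. Summed over the 3 rows, Orco was at 3.66, 4.75 and 3.48 TPM in asarone and at 4.59, 3.52 and 3.77 TPM in control insects, with means of 3.96 TPM in both groups and groups that overlapped.

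The tuning odorant receptors, which bind the odorants beside Orco, were also listed at a few TPM or less. The row described as odorant receptor 22b-like (TRINITY_DN30879_c0_g1) was at 2.67, 2.04 and 2.13 TPM in asarone and at 1.00, 3.83 and 1.57 TPM in control replicates 1, 2 and 3. All 3 asarone values lay inside the control range (log2 change 0.16, SE 0.34), and without control replicate 2 they lay above the remaining controls (log2 change 0.53, SE 0.20, limma adjusted p = 1.00). The rows described as odorant receptor 69a (TRINITY_DN39090_c0_g1) and odorant receptor 67c-like (TRINITY_DN21107_c0_g1) were listed at 0 to 0.76 TPM and 0 to 0.50 TPM over the 6 libraries and were not tested. Receptor numbers come from the best hit and do not identify the ligand in this species.

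Of the 7 gustatory receptor rows, 3 reached a mean of 1 TPM. The most abundant, described as gustatory receptor 28a (TRINITY_DN6912_c0_g2), was at 8.14, 7.23 and 7.00 TPM in asarone and at 6.59, 3.82 and 6.74 TPM in control replicates 1, 2 and 3. All asarone values lay above all control values, with the nearest libraries at 7.00 and 6.74 TPM, and the log2 change was 0.36 (SE 0.22, 95% limma interval -0.18 to 0.90, limma adjusted p = 0.98). Without control replicate 2 the log2 change was 0.14 (SE 0.12). A second row with the same description (TRINITY_DN40649_c0_g2) was listed at 2.50, 0 and 0.65 TPM in asarone and at 1.53, 0.58 and 0.81 TPM in control insects, and summed over both rows the groups overlapped, at 10.6, 7.23 and 7.65 TPM in asarone and at 8.12, 4.40 and 7.55 TPM in control insects.

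Receptors of the 21a type detect carbon dioxide in Drosophila. The row described as gustatory and odorant receptor 21a-like isoform X1 (TRINITY_DN6376_c0_g2) was at 1.73, 1.92 and 1.49 TPM in asarone and at 2.01, 1.10 and 1.98 TPM in control replicates 1, 2 and 3 (log2 change 0.025, SE 0.21). The other 4 gustatory rows, the second 21a-like row, the 24-like row, receptor 28b and receptor 11, had means between 0.248 and 0.502 TPM and were not tested. The 24-like row (TRINITY_DN6376_c1_g1) was listed at 0.20, 0.19 and 0 TPM in asarone and at 0.39, 0.31 and 0.40 TPM in control insects. These values did not overlap, and all lay under the tested level.

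The only ionotropic receptor row found, described as ionotropic receptor 93a (TRINITY_DN24129_c0_g1), a receptor needed for temperature and humidity sensing in Drosophila, was listed at 1.81 TPM in control replicate 1 and at 0 in the other 5 libraries. A listed 0 can be an estimate that failed, and the row was not tested.

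**Figure D5:**
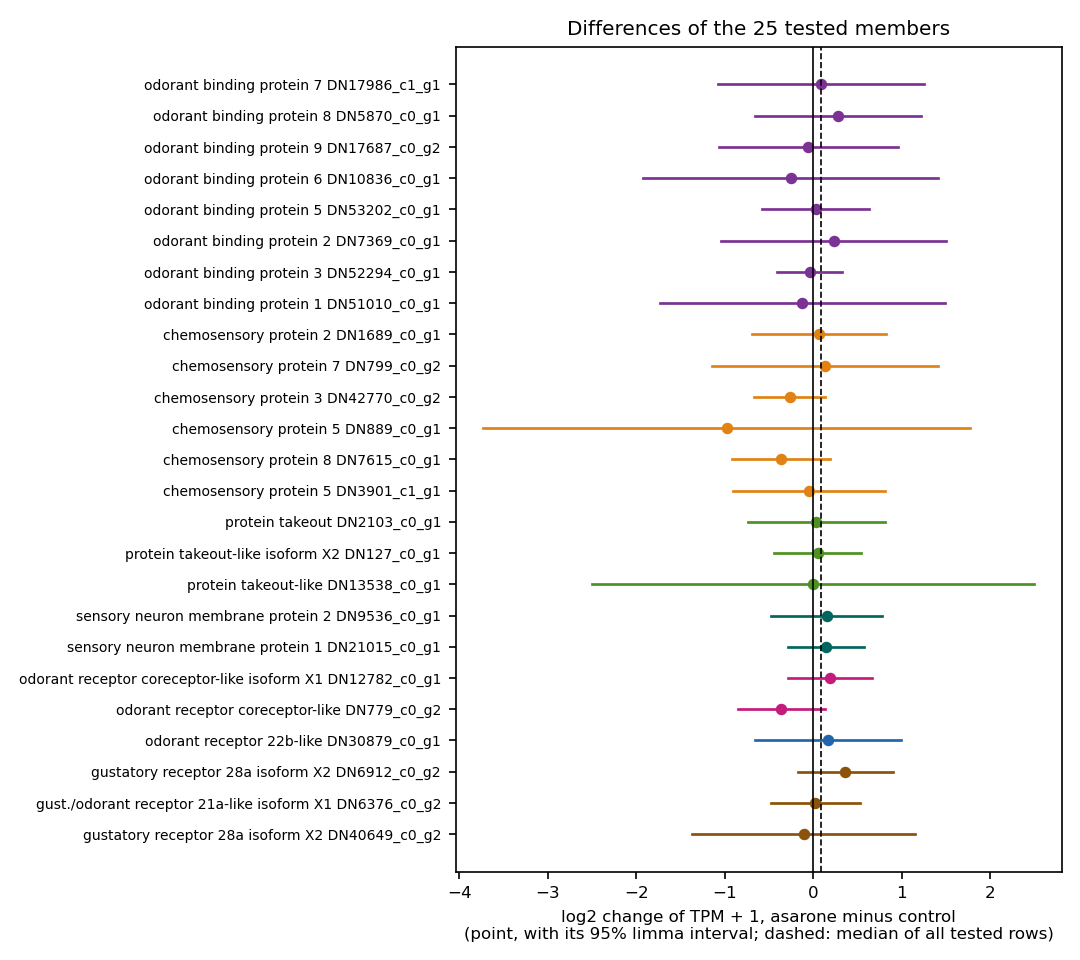
Log2 change of TPM + 1, asarone minus control, with its 95% limma interval for the 25 tested chemosensory transcripts, coloured by class; the solid line is 0 and the dashed line the median of all tested genes (0.084). All 25 intervals contain 0, and they are widest for chemosensory protein 5 and a takeout-like transcript.

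The 25 tested members differed widely in how much they varied between libraries of 1 group. The median SD within groups was 0.46 on the log2 scale for the tested members and 0.31 for all tested genes. These medians were not matched for level, and log2(TPM + 1) flattens rows near 1 TPM. In 16 of the 25 the SD was larger among controls than among asarone libraries. The same share over all tested genes was not computed, so this count is not read as a trait of the members. In 9 of the 25 the SD was under that median of all tested genes, and these ran from 0.14 to 0.28. Set against tested genes with a mean within 2-fold of their own, these 9 members lay at SD percentiles 14.1 to 47.9. They were odorant-binding protein 3, sensory neuron membrane protein 1, chemosensory proteins 3 and 8, the Orco rows TRINITY_DN12782_c0_g1 and TRINITY_DN779_c0_g2, the takeout-like isoform X2, the more abundant Gr28a row (TRINITY_DN6912_c0_g2) and the receptor 21a-like isoform X1 (TRINITY_DN6376_c0_g2). Of the 34 members, 11 had their highest value in asarone replicate 1, 2 in asarone replicate 2 and 1 in asarone replicate 3, and 7, 6 and 7 in control replicates 1, 2 and 3. Among the 25 tested these counts were 8, 1 and 1 in asarone and 5, 6 and 4 in control replicates 1, 2 and 3. The same counts over all genes were not made, so these counts are not read as a trait of the members. The median TPM of all tested genes was 3.37, 2.935 and 2.85 in asarone and 3.36, 2.23 and 2.94 in control replicates 1, 2 and 3, highest in asarone replicate 1. Odorant-binding proteins 1 and 2, chemosensory proteins 5 and 7 and the variable takeout-like transcript were among those highest in asarone replicate 1.

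Related sensory and carrier genes outside the rule gave no call either. The list of other sensory channels and phototransduction proteins was picked by name. It also takes transient receptor potential mucolipin, arrestin domain-containing protein 4 and a rhodopsin-sensitive phosphodiesterase delta subunit, which are not specific to sensory cells. Of the 20 rows of this list, 10 were tested, 4 with a log2 change above 0 and 6 below. None passed the adjusted threshold or an unadjusted p under 0.05. The most abundant, an arrestin homologue (TRINITY_DN135_c1_g1), of a family that quenches receptor signalling, was at 34.9, 34.8 and 36.2 TPM in asarone and at 37.8, 35.0 and 35.0 TPM in control replicates 1, 2 and 3. The groups did not overlap for 1 of the 10 tested rows, against 8.66% of all tested genes. This row, UVopsin1 (TRINITY_DN13702_c0_g1), was at 0.90, 1.22 and 1.04 TPM in asarone and at 1.46, 1.25 and 1.25 TPM in control insects. The more abundant UVopsin2 (TRINITY_DN13702_c0_g2) was at 3.57, 2.66 and 2.77 TPM in asarone and at 2.87, 1.79 and 2.74 TPM in control insects. Its log2 change was above 0, at 0.21 (SE 0.20), and its groups overlapped. A transient receptor potential-gamma channel row (TRINITY_DN39595_c0_g2) had the smallest unadjusted p of the list. It was listed at 0 in all 3 asarone libraries and at 4.70, 0 and 2.52 TPM in control insects (limma adjusted p = 0.98). Other rows of the same description were above 0 in every asarone library and under the tested level. TRINITY_DN39595_c0_g3 was at 0.27, 0.21 and 0.29 TPM in asarone and at 0.27, 0.22 and 0.54 TPM in control insects. TRINITY_DN39595_c0_g4 was at 0.18, 0.09 and 0.32 TPM in asarone and at 0.54, 0 and 0.18 TPM in control insects.

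All 4 rows of takeout relatives were tested, 2 above and 2 below 0, with 0 called. The most abundant, circadian clock-controlled protein daywake (TRINITY_DN3402_c0_g1), was at 151, 112 and 135 TPM in asarone and at 230, 93.9 and 127 TPM in control replicates 1, 2 and 3, highest and lowest in the same control libraries as chemosensory protein 2. The juvenile hormone binding protein (TRINITY_DN15629_c0_g1), with the smallest unadjusted p of this list, was at 27.2, 23.4 and 22.2 TPM in asarone and at 27.1, 15.5 and 22.6 TPM in control insects (limma adjusted p = 0.98). Of 5 ionotropic glutamate receptor rows, relatives of the chemosensory ionotropic receptors, 2 were tested and 0 called. Kainate 2 isoform X3 (TRINITY_DN13973_c0_g1) was the most abundant, at 3.86, 3.81 and 4.31 TPM in asarone and at 5.50, 2.94 and 3.82 TPM in control insects, and isoform X11 (TRINITY_DN7989_c0_g1) had the smaller unadjusted p of the 2 (limma adjusted p = 0.98). The single rows found for 2 further lists were under the tested level. The fatty acid-binding protein (TRINITY_DN49665_c0_g1), whose best hit is a spider, was listed at 2.48 TPM in asarone replicate 2 and at 0 in the other 5 libraries. The scavenger receptor class B member 1 (TRINITY_DN40828_c0_g1), of the CD36 family, was listed at 0.76, 0.73 and 0 TPM in asarone and at 0 in all 3 control libraries.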

How the data were processed

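Whole-body poly(A) RNA was sequenced in 3 asarone and 3 control libraries that kept strand, per the labels' protocols. DESeq2, edgeR, StringTie 1.3.4d, HISAT2 2.0.4 and cutadapt 1.9 are listed with no role in the submitters' processing notes; the build is not given in the sources used here. For each library, the deposited TPM values, to 2 decimals, were made by the authors; the table is named for FPKM, but its libraries sum to between 999999.3 and 1000002.3, as TPM does. Counting intervals cannot be had from TPM. The 2 columns of group means were left out. Rows of one gene, or of near-identical family members, can share or split reads.

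All genes averaging 1 TPM or more entered a two-sided limma test (limma 3.58.1, R 4.3.3, trend and robust) of log2(TPM + 1), with Benjamini-Hochberg adjustment over all of them. Low genes change by more than this scale shows. The fit was tested on simulated data. The members, classes and lists were chosen with earlier results of these data known. Named were members averaging 10 TPM or more, the top of each class, those with an unadjusted p under 0.05 or groups that did not overlap, and from each related list the most abundant and smallest-p row; the choice of any other named member followed a look at its values. Members got no set test or p over their list. The alternatives were other pseudocounts (0.1, 0.5), filters (none, 5 TPM), scalings, a replicate block, limma without trend, planthopper best hits only and leaving out each library; summing members of one name was added after the data were seen. Figures were drawn with matplotlib 3.10.9.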

Additional observations from a re-analysis of the deposited data

How the results depend on the processing

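Of the 25 tested members, 0 passed the adjusted threshold under any alternative run. Over all genes tested, 1 passed it. That count was 0 under each other scaling, with a replicate block, at a pseudocount of 0.1, without a filter, at a minimum mean of 5 TPM, for planthopper best hits alone and without any single library (0 to 0). Members with an unadjusted p under 0.05 numbered 0 and became 2 of 25 under median-of-ratios and trimmed-mean scaling and 1 of 25 under quantile normalization. The same share over all tested genes was 4.01% under median-of-ratios scaling and 4.03% under both trimmed-mean scaling and quantile normalization. Without a library such members numbered 0 to 1, where the share over all tested genes was 3.16% to 6.10%. Members whose groups did not overlap numbered 2 of 25. They became 1 of 15 at a minimum mean of 5 TPM (7.28% of all tested genes) and 3 of 34 without a filter (8.25%). They were 3 of 25 under median-of-ratios scaling (8.93%) and quantile normalization (8.86%), and 4 of 25 under trimmed-mean scaling (8.99%). With members of one name summed (added once the data were seen) they were 0 of 23 (8.66%). Without a library they were 2 to 6, where 14.4% to 27.1% of all tested genes did not overlap. The cause of these shifts was not tested, except that fewer samples make an overlap rarer.

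The sign of several small log2 changes turned with the scaling. Under median-of-ratios and trimmed-mean scaling they became -0.0507 and -0.0374 for TRINITY_DN127_c0_g1, -0.0417 and -0.0275 for chemosensory protein 2, -0.0196 and -0.00544 for odorant-binding protein 7, -0.0647 and -0.0513 for TRINITY_DN2103_c0_g1, and -0.0763 and -0.0626 for odorant-binding protein 5. Under quantile normalization they were -0.0232 for TRINITY_DN127_c0_g1, -0.0320 for TRINITY_DN2103_c0_g1 and -0.0404 for odorant-binding protein 5. The upper Orco row became -0.0019 when the Orco rows were summed. Leaving out single libraries gave ranges of -0.15 to 0.57 for odorant-binding protein 8, -0.27 to 0.58 for 2, -0.72 to 0.43 for 6, -0.43 to 0.51 for 7, -0.49 to 0.33 for 9 and -0.23 to 0.19 for 5. They were -0.43 to 0.41 for chemosensory protein 7, -0.26 to 0.37 for chemosensory protein 2, -0.14 to 0.17 for TRINITY_DN127_c0_g1, -0.21 to 0.34 for TRINITY_DN2103_c0_g1, -0.0586 to 0.28 for sensory neuron membrane protein 2 and -0.11 to 0.53 for odorant receptor 22b-like.

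The labels do not say whether libraries with the same replicate number are paired. Deviations of such libraries from their group means correlated at 0.157, 0.0814 and -0.035 for replicates 1, 2 and 3. Between libraries with different numbers the correlations ran from -0.139 to 0.0613. Whether the libraries pair was not tested. With a replicate block 0 genes passed, and the block left the members past the threshold at 0. The median log2 change of the members was 0.028 and ranged from -0.14 to 0.11 without single libraries. Receptors near 1 TPM are limited by an unknown depth.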

Other observations

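For 4 members that varied between libraries, the described gene with the highest correlation across the libraries was looked up. The correlation ignores the level of a gene and the size of its change. Among 3537 tested genes with an informative description, the highest Pearson's r of log2(TPM + 1) with chemosensory protein 5 (TRINITY_DN889_c0_g1) over the 6 libraries, 0.975, belonged to tyrosine 3-monooxygenase (TRINITY_DN7648_c0_g1), the enzyme that makes DOPA for cuticle tanning and for dopamine. That gene was at 324, 19.99 and 14.6 TPM in asarone and at 93.3, 210.2 and 148 TPM in control replicates 1, 2 and 3. As for the chemosensory protein, asarone replicate 1 was above and asarone replicates 2 and 3 were below every control. In all, 7 described genes reached an r of 0.95. For odorant-binding protein 7 the number was 22, and the highest r, 0.995, belonged to a row described as cocaine esterase (TRINITY_DN11115_c0_g1), at 18.5, 23.5 and 22.4 TPM in asarone and at 13.8, 27.7 and 23.4 TPM in control insects. For odorant-binding protein 9 the number was 54, and the highest r, 0.996, belonged to a homolog of the deubiquitinase MINDY-3 (TRINITY_DN16287_c0_g1), at 7.12, 6.61 and 6.96 TPM in asarone and at 7.94, 6.02 and 7.11 TPM in control insects. For the takeout-like transcript TRINITY_DN13538_c0_g1 the number was 0. These likenesses were looked for after the values were seen, rest on 6 libraries that share their composition and have no test.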
